A study of Oryza sativa with 8 samples.

Results

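4-coumarate CoA ligases (4CL) and the 4CL-like (4CLL) genes of rice were examined across submergence and genotype. The members were the 8 genes 4CL1, 4CL2, 4CL3, 4CL4, 4CL5, 4CLL1, 4CLL4 and 4CLL7, chosen by gene name, each through 1 probe set that the platform annotation pairs with exactly 1 gene. They are 8 of 17905 genes that have such a probe set. The gene table used for names holds 1 more gene of this type, named 4CLL5 and 4CLL6, with which no probe set is paired here. Messenger RNA was measured with Affymetrix rice arrays in aerial tissue, with 2 arrays in each of 4 groups. M202(Sub1) submerged plants carried Sub1A and had been completely under water for 24 h. M202(Sub1) non-submerged plants carried Sub1A and were not put under water. M202 submerged plants lacked Sub1A and had been under water for 24 h. M202 non-submerged plants lacked both. M202 is a japonica rice that does not tolerate submergence, and Sub1A is an ethylene response factor gene that gives tolerance. All plants had the M202 germplasm and were 14 days old, grown in soil in a greenhouse. By their titles, submerged plants were sampled at day 1 and the others at day 0, and a day of growth cannot be told apart from the time under water. The labels call the 2 replicates of a group independent biological ones but give neither the plants per array nor how cultures were kept apart.

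4CL enzymes join coenzyme A to 4-coumaric acid and related hydroxycinnamic acids. The thioesters they make stand at the branch point of phenylpropanoid metabolism, from which one branch leads to lignin, the phenolic polymer that stiffens and seals secondary cell walls, and another to flavonoids. In rice, 4CL3 is known as a main 4CL of lignin synthesis, 4CL4 is also listed as RAL1 and affects lignin and aluminium resistance, and 4CL2 has been linked to flavonoid formation. 4CL-like proteins belong to the same family of acyl-activating enzymes, and no substrate is assigned to 4CLL1, 4CLL4 or 4CLL7 here.

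Deposited log2 levels started on every array at a common floor of 2.22, and the highest was 16.9. Arrays of the same group correlated with r = 0.9985 to 0.9989 over the probe sets. The fermentation genes Adh2 and PDC1, which respond to low oxygen, had summed levels of 12.01 to 12.08 (log2) in submerged M202(Sub1) and 8.59 to 8.67 in submerged M202, against 3.33 to 3.48 on the non-submerged arrays. Photosynthesis genes marked the tissue as green shoot, since 6 of the 7 measured lay above 11 on every array and RBCS1 lay between 2.64 and 3.12. Of 3 root markers, Lsi2 was at the floor and YSL15 between 2.82 and 2.84, while Lsi1, a silicon transporter, lay between 9.49 and 10.23 and changed with submergence in opposite directions in the 2 genotypes. All 3 anther markers lay within 0.1 of the floor in every group. Bacterial control transcripts with a poly(A) tail (poly(A) spike-ins) averaged 9.03 and 9.09 in submerged M202(Sub1), 8.73 and 8.60 in non-submerged M202(Sub1), 8.84 and 8.78 in submerged M202 and 8.62 and 8.62 in non-submerged M202. When arrays were centred on them, the median change over all probe sets tested was -0.40 in place of 0 for submergence in M202(Sub1), -0.19 for submergence in M202 and -0.25 for genotype in submerged plants. The difference between the 3' and 5' actin probe sets, a sign of RNA quality, was 3.12 and 2.87 in submerged M202(Sub1) and 2.54 to 2.81 on the other arrays. The same difference for GAPDH was higher on every submerged array, at 0.446 and 0.252 in M202(Sub1) and 0.423 and 0.320 in M202, than on the non-submerged arrays, at 0.177 and 0.130 in M202(Sub1) and 0.188 and 0.124 in M202. The part of these differences in the results below was not tested, beyond the centred values given.

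All 8 members passed the filter on low values. A call is an adjusted p below 0.05 over the 34355 probe sets tested, from a limma fit with 1 coefficient per group. Many of these lie near the floor, so the shares of all probe sets below are lower than among brighter ones. A filter at the 60th percentile of the 57258 probe sets other than controls left fewer of them to test. It gave 16542 calls for submergence in M202(Sub1), against 16808, and 14841 in M202, against 14738. It gave 8102 for genotype in submerged plants, against 7123, and 5117 for the genotype difference in response, against 4223. The family had 6, 7, 3 and 3 calls there, in that order. Since fewer probe sets were tested, these counts of all probe sets are larger shares than those given below. The family's calls stand out less beside them. Each change is a log2 group mean minus another, given ± its standard error (SE), with n = 2 arrays per group. The levels of one gene cannot be set against those of another, since probe sets differ in brightness. In whole shoots, fewer cells of a type and less RNA per cell cannot be told apart.

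**Figure D1:**
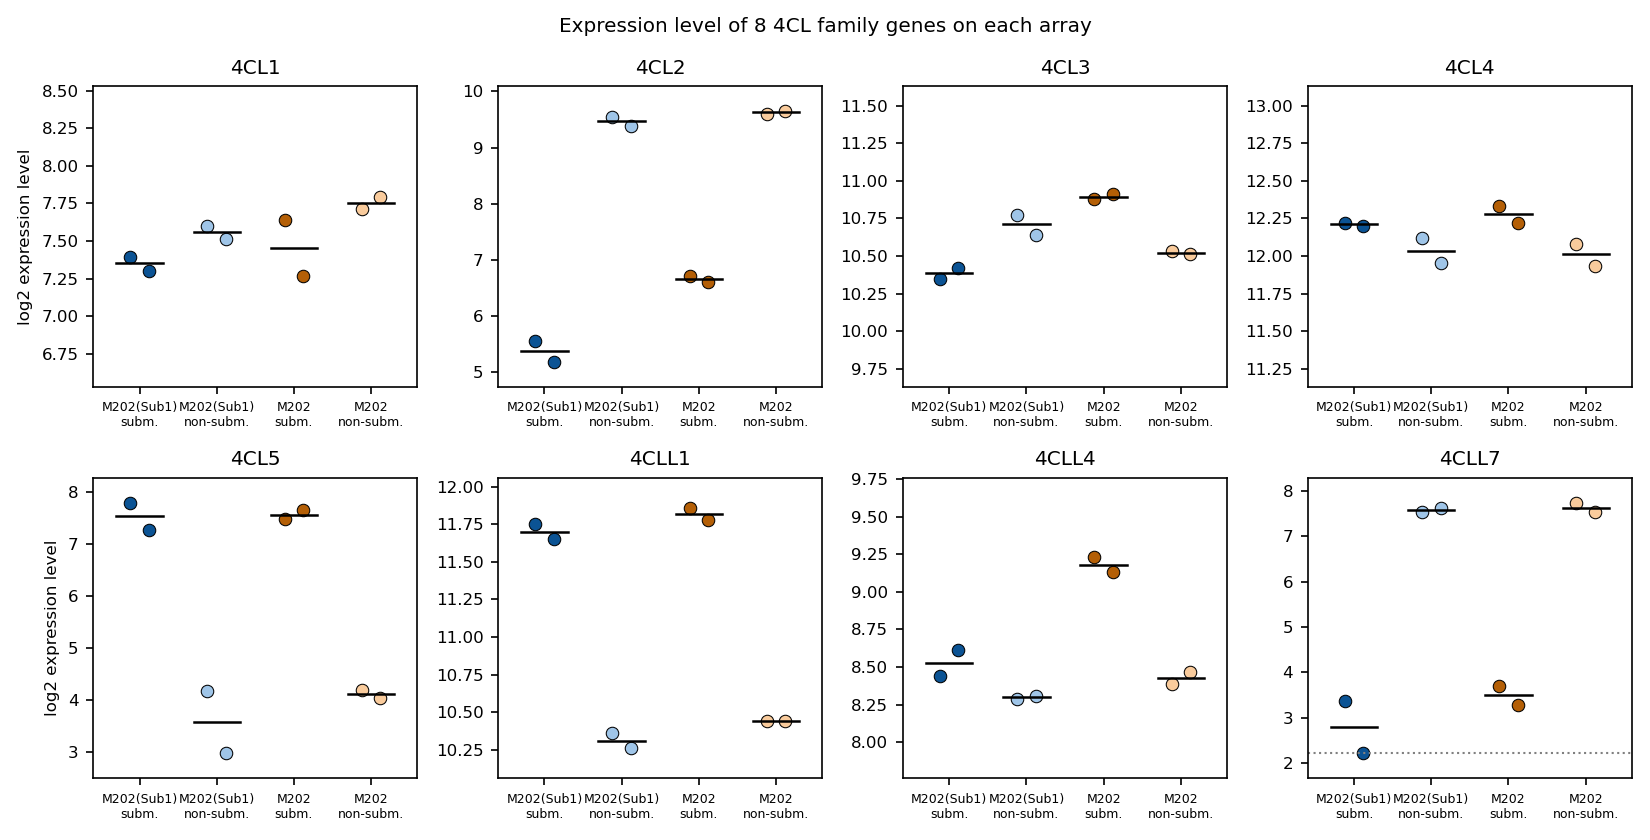
Log2 expression level of each gene (vertical axes, which differ between panels) on each array (points) in the 4 groups, with the group mean as a bar and the floor of 2.22 as a dotted line where the axis reaches it. 4CL2 and 4CLL7 are low on the submerged arrays of both genotypes, 4CL5 and 4CLL1 are high there, and 4CL3 is highest in submerged M202 and lowest in submerged M202(Sub1).

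Submergence divided the family. 4CL2 and 4CLL7 fell strongly in both genotypes, 4CL5 and 4CLL1 rose in both, and these directions held under every scaling tried. 4CL3 rose slightly in M202 and fell slightly in M202(Sub1). In M202(Sub1), 5 of the 8 genes were called after submergence, 2 higher and 3 lower, where 48.9% of all probe sets tested were called, 27.7% higher and 21.2% lower. In M202, 7 of the 8 were called, 5 higher and 2 lower, beside 42.9% of all probe sets, 22.9% higher and 20.0% lower. In each genotype 4 members were called with at least a 2-fold change, beside 23.5% of all probe sets in M202(Sub1) and 18.6% in M202. The median change of the 8 genes was -0.02 in M202(Sub1) and 0.32 in M202, and that of all probe sets was 0 in both. The median size of change, regardless of sign, was 0.85 in M202(Sub1) and 1.06 in M202 for the family, and 0.36 and 0.27 for all probe sets. Many of all probe sets lie near the floor, and sizes were not compared among probe sets of like level.

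Among the enzymes of the lignin branch, 4CL3 had 10.35 and 10.42 in submerged M202(Sub1), against 10.77 and 10.64 in non-submerged M202(Sub1). In M202 it had 10.88 and 10.91 in submerged plants, against 10.53 and 10.51 in non-submerged plants. Arrays of submerged and non-submerged plants did not overlap in either genotype, and they lay in opposite order. 4CL3 fell by 0.32 ± 0.05 in M202(Sub1), a level 1.25-fold lower (limma adjusted p = 0.00452), and rose by 0.38 ± 0.05, or 1.30-fold, in M202 (limma adjusted p = 0.00295). The root marker Lsi1 had the same opposite course, at -0.56 ± 0.04 in M202(Sub1) and 0.20 ± 0.04 in M202, both called (limma adjusted p = 0.000213 and 0.0135), while YSL15 stayed between 2.82 and 2.84 and Lsi2 at the floor. The part of root tissue in the change of 4CL3 was not tested. Both changes of 4CL3 are small and near the shift of the spike-ins. With arrays centred on the spike-ins they were -0.71 in M202(Sub1) and 0.19 in M202, and both kept their call. The order of the groups for 4CL3 was submerged M202, non-submerged M202(Sub1), non-submerged M202 and submerged M202(Sub1), and no neighbours in that order overlapped.

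4CL4 had 12.22 and 12.20 in submerged M202(Sub1), against 12.12 and 11.95 in non-submerged M202(Sub1). In M202 it had 12.33 and 12.22 in submerged plants, against 12.08 and 11.93 in non-submerged plants. Its change was 0.18 in M202(Sub1), with a 95% interval of -0.03 to 0.39 and no call, and -0.22 when centred on the spike-ins (limma adjusted p = 0.0133). In M202 it rose by 0.27 ± 0.08, just past the threshold (limma adjusted p = 0.0493). That call was lost without any 1 of 6 of the 8 arrays (limma adjusted p = 0.0553 to 0.204) and with centring on the spike-ins, where the value was 0.08. A second probe set paired with 4CL4 gave 3.80 or 3.81 on all 8 arrays, hardly varying even between replicates. Whether it detects the transcript is not known, so it gives no reading of these differences.

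4CL2, the member linked to flavonoids, had 5.56 and 5.19 in submerged M202(Sub1), against 9.55 and 9.39 in non-submerged M202(Sub1). In submerged M202 it had 6.72 and 6.60, against 9.60 and 9.65 in non-submerged M202. The submerged arrays of both genotypes lay far below the non-submerged ones, and those of M202(Sub1) lay below those of M202. 4CL2 fell by 4.09 ± 0.14 in M202(Sub1), a level 17.0-fold lower (limma adjusted p = 1.68e-05), and by 2.97 ± 0.14 in M202, 7.83-fold lower (limma adjusted p = 5.74e-05).

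4CL1 and 4CL5 are 4CL enzymes whose branch is less settled. 4CL5 had 7.79 and 7.27 in submerged M202(Sub1), against 4.17 and 2.97 in non-submerged M202(Sub1). In submerged M202 it had 7.47 and 7.64, against 4.19 and 4.03 in non-submerged M202. Its submerged arrays overlapped between the genotypes, and so did its non-submerged arrays. It rose by 3.96 ± 0.42 in M202(Sub1), or 15.6-fold (limma adjusted p = 0.000946), and by 3.44 ± 0.42 in M202, or 10.9-fold (limma adjusted p = 0.00199). Replicate 2 of non-submerged M202(Sub1) stood apart from the other array of its group. The rise in M202(Sub1) was 3.36 without that array and 4.56 without replicate 1 of the same group. 4CL1 had 7.39 and 7.30 in submerged M202(Sub1), against 7.60 and 7.51 in non-submerged M202(Sub1), and 7.64 and 7.27 in submerged M202, against 7.71 and 7.79 in non-submerged M202. Within each genotype its arrays did not overlap between submerged and non-submerged plants. Its changes of -0.21 (95% interval -0.55 to 0.13) in M202(Sub1) and -0.30 (-0.64 to 0.04) in M202 were still not called. Centred on the spike-ins they were -0.61 and -0.49, both called (limma adjusted p = 0.00198 and 0.0103). In M202 the value moved with single arrays and was -0.49 without replicate 1 of submerged plants, a call (limma adjusted p = 0.0117), and -0.11 without replicate 2, with no call.

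The 4CL-like genes took 3 different courses. 4CLL7 had 3.36 and 2.22 in submerged M202(Sub1), against 7.54 and 7.62 in non-submerged M202(Sub1), and 3.70 and 3.29 in submerged M202, against 7.74 and 7.53 in non-submerged M202. It fell by 4.79 ± 0.39 in M202(Sub1), or 27.7-fold (limma adjusted p = 0.000345), and it fell by 4.14 ± 0.39 in M202, or 17.6-fold (limma adjusted p = 0.000756). Replicate 2 of submerged M202(Sub1) was at the floor, so the fold in that genotype is limited by the floor. The value there was -4.22 without that array and -5.36 without replicate 1 of the same group.

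4CLL1 moved the other way. It had 11.75 and 11.65 in submerged M202(Sub1), against 10.36 and 10.26 in non-submerged M202(Sub1), and 11.86 and 11.78 in submerged M202, against 10.44 and 10.44 in non-submerged M202. The rise was 1.39 ± 0.06 in M202(Sub1) and 1.38 ± 0.06 in M202, or 2.62-fold and 2.61-fold (limma adjusted p = 2.77e-05 and 3.78e-05). Centred on the spike-ins it was 0.99 and 1.19.

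4CLL4 had 8.44 and 8.61 in submerged M202(Sub1), against 8.29 and 8.31 in non-submerged M202(Sub1). In submerged M202 it had 9.23 and 9.13, against 8.39 and 8.47 in non-submerged M202. It stood highest in submerged M202, apart from all other arrays. It rose by 0.75 ± 0.07, or 1.68-fold, in M202 (limma adjusted p = 0.000921). In M202(Sub1) its change of 0.23 was not called (95% interval 0.03 to 0.42, limma adjusted p = 0.0595), and it was -0.17 when centred on the spike-ins. It was called there without replicate 1 of submerged M202(Sub1), at 0.32 (limma adjusted p = 0.0238), but was 0.14 without replicate 2 (limma adjusted p = 0.19), and 7 of the 8 fits that left out an array gave no call. It was also called with the filter at the 60th percentile (limma adjusted p = 0.0443).

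**Figure D2:**
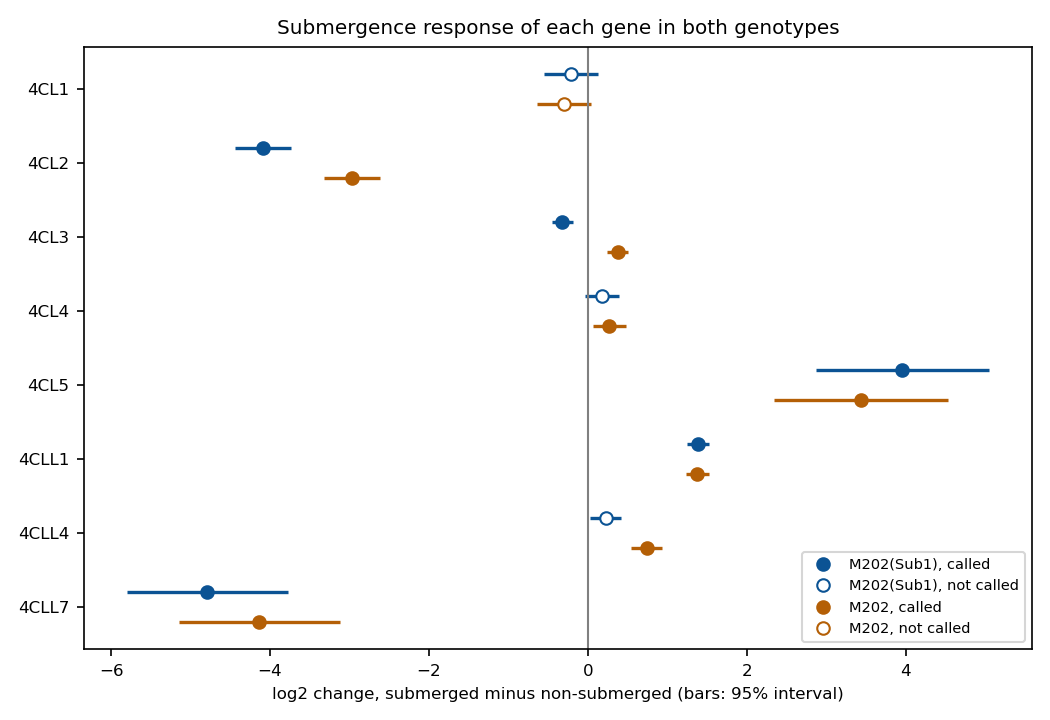
Log2 change with submergence (horizontal axis) of each gene in M202(Sub1) (blue, upper point of each pair) and in M202 (orange, lower point), with 95% intervals from the limma fit and filled points for calls. The points of 4CL3 lie on opposite sides of 0, at -0.32 in M202(Sub1) and 0.38 in M202, while those of 4CLL1 nearly coincide at 1.39 and 1.38.

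The next comparison asked whether the response itself differed between the genotypes, as the submergence change in M202(Sub1) minus that in M202. 3 of the 8 genes were called, 4CL2, 4CL3 and 4CLL4, all lower and none higher, where 12.3% of all probe sets were called, 5.93% lower and 6.36% higher. With a fold of at least 2, the call was made for 4CL2, beside 2.93% of all probe sets. 4CL3 had a difference of -0.69 ± 0.07 (limma adjusted p = 0.0078) and kept its call under all 15 alternatives tried, with values of -0.90 to -0.63. 4CL2 had -1.12 ± 0.19 (limma adjusted p = 0.027) and 4CLL4 -0.52 ± 0.11 (limma adjusted p = 0.0409). With no filter on low values the adjusted p was 0.0606 for 4CL2 and 0.0828 for 4CLL4, and when single arrays were left out, 4CL2 lost its call for 6 of the 8 arrays and 4CLL4 for 7 (limma adjusted p = 0.0588 to 0.09 and 0.0608 to 0.119). The 3 genes reached a lower value in different ways, since 4CL2 fell more in M202(Sub1), 4CL3 moved in opposite directions, and 4CLL4 was called higher in M202 and not called in M202(Sub1).

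The 5 other genes had no call for this difference. It was 0.01 for 4CLL1 (95% interval -0.19 to 0.21), 0.09 for 4CL1 (-0.39 to 0.57) and -0.09 for 4CL4 (-0.39 to 0.20). For the strongly moving genes the intervals were wide, at 0.52 for 4CL5 (-1.02 to 2.06) and -0.66 for 4CLL7 (-2.09 to 0.78), so differences of over 2-fold in either direction lie within the interval of 4CL5 and were not detectable with these arrays. For 4CLL7 the value was -0.09 without the array at the floor, replicate 2 of submerged M202(Sub1), and -1.23 without replicate 1 of that group, with no call in either.

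**Figure D3:**
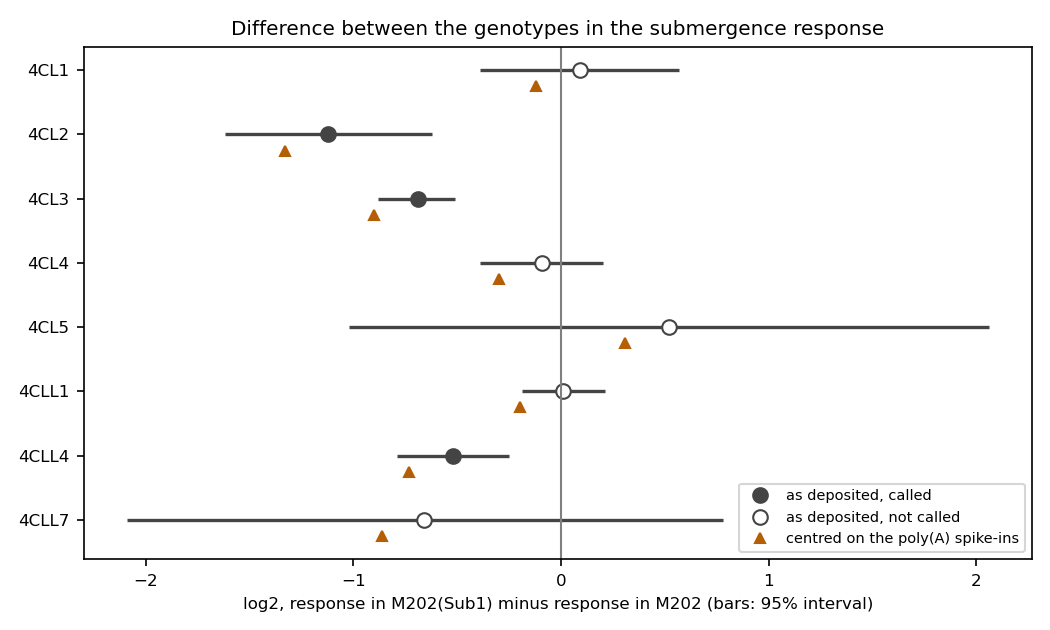
Submergence response in M202(Sub1) minus that in M202 (log2, horizontal axis) of each gene, with 95% intervals from the limma fit and filled points for calls, and triangles for arrays centred on the poly(A) spike-ins. 4CL2, 4CL3 and 4CLL4 lie below 0 with their whole interval. Centring shifts each array as a whole, and so by construction lowers every gene by the same amount.

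Before submergence no member was called between the genotypes. limma called 0 of 8, where 1.91% of all probe sets were called, 0.684% higher, 1.23% lower and 0.885% with a fold of at least 2, and 1 of the 8, 4CL3, had an unadjusted p below 0.05. 4CL3 was higher in non-submerged M202(Sub1) by 0.19 (95% interval 0.06 to 0.32, limma adjusted p = 0.236). The other 7 values lay between -0.54 for 4CL5 and 0.03 for 4CL4.

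In submerged plants 3 of 8 genes were called between the genotypes, all lower in M202(Sub1), where 20.7% of all probe sets were called, 10.6% higher and 10.1% lower. Only 4CL2 among them differed by at least 2-fold, beside 3.42% of all probe sets. They were 4CL2, 4CL3 and 4CLL4, and this comparison shares the submerged arrays with the response difference. 4CL2 averaged 5.38 ± 0.26 in submerged M202(Sub1) and 6.66 ± 0.08 in submerged M202 (SD, n = 2 each), a level 2.43-fold lower (limma adjusted p = 0.00421). 4CL3 averaged 10.39 ± 0.05 and 10.89 ± 0.02 in submerged M202(Sub1) and submerged M202, 1.42-fold lower (limma adjusted p = 0.00359). 4CLL4 averaged 8.53 ± 0.13 and 9.18 ± 0.08, 1.57-fold lower (limma adjusted p = 0.00508). Fitted on these 4 arrays alone, 4CL2 and 4CLL4 lost the call (limma adjusted p = 0.0634 and 0.0666) and 4CL3 kept it (limma adjusted p = 0.0342). 4CLL7 had -0.71 and no call, -0.14 without its array at the floor, and -1.28 with a call (limma adjusted p = 0.0347) when that array alone stood for submerged M202(Sub1). Centred on the spike-ins, 7 of the 8 were called lower in M202(Sub1), beside 14181 lower and 1603 higher of the 34355 probe sets tested. The median of all probe sets was then -0.25.

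The enzymes around 4CL in the pathway were read from a list of lignin and general phenylpropanoid genes, of which 31 were in the gene table, 23 had a probe set and 21 were tested. For the response difference 10 of these 21 were lower, 1 higher and 10 not called, beside 5.93% of all probe sets lower and 6.36% higher. Their median was -0.39, beside 0.02 for all probe sets. CCR1, LAC19, LAC23 and LAC24 lay between 2.22 and 2.75 on every array, near the floor. LAC24 was among the 10 lower for the response difference. Lsi1 had -0.76 ± 0.06 (limma adjusted p = 0.00361) in the same comparison, and its part was not tested. CAD8A, a cinnamyl alcohol dehydrogenase, which makes the alcohols that are joined into lignin, had -1.63 ± 0.22 (limma adjusted p = 0.0141). LAC4, a laccase, which oxidises those alcohols in the wall, had -1.55 ± 0.12 (limma adjusted p = 0.0041). Centred on the spike-ins, 14 were lower and 0 higher, beside 4288 lower and 1051 higher of the 34355 probe sets tested. Leaving out either array of non-submerged plants of either genotype took the count of calls to 7. In submerged plants 10 of the 21, LAC24 among them, were lower in M202(Sub1), 1 was higher and 10 were not called. Of all probe sets, 10.1% were called lower and 10.6% higher. Fitted on the 4 submerged arrays alone, 6 were lower and 0 higher, beside 1546 lower and 1454 higher of the 34355 probe sets tested. Centred on the spike-ins, 17 were lower and 0 higher, beside 14181 lower and 1603 higher among all probe sets tested. Before submergence 0 of the 21 were called by limma, beside 1.91% of all probe sets, and 1 was called with quantile normalization or without replicate 1 of non-submerged M202.

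Submergence itself moved lignin genes both ways. In M202(Sub1) 5 of the 21 rose, 7 fell and 9 were not called, with a median of -0.09, beside 27.7% of all probe sets higher and 21.2% lower. In M202 8 rose, 6 fell and 7 were not called, with a median of -0.04, beside 22.9% higher and 20.0% lower. LAC24, among the 8, and LAC23, among the 6, lay near the floor. Centred on the spike-ins, 3 rose and 14 fell in M202(Sub1), beside 6362 probe sets higher and 20778 lower of the 34355 tested. With the same centring 7 rose and 11 fell in M202, beside 6352 probe sets higher and 12710 lower. CAD8A had 8.30 and 8.01 in submerged M202(Sub1), against 2.70 and 3.01 in non-submerged M202(Sub1), and 9.69 and 9.73 in submerged M202, against 2.68 and 2.88 in non-submerged M202. It thus rose in both genotypes, by 5.30 ± 0.15 in M202(Sub1) and 6.93 ± 0.15 in M202. LAC4 fell by 4.31 ± 0.09 in M202(Sub1) and fell by 2.77 ± 0.09 in M202. CAD3 fell by 3.88 ± 0.06 in M202(Sub1) and fell by 2.81 ± 0.06 in M202. PAL, HCT1 and the other tested genes of their types were named after their values were seen. PAL, a phenylalanine ammonia-lyase, which supplies the pathway, rose by 1.23 ± 0.04 in M202(Sub1) and 1.09 ± 0.04 in M202. It was read from 1 of the 5 probe sets paired with it, and the others were not read. PAL06, the other listed gene of this type, rose by 0.78 ± 0.17 in M202 (limma adjusted p = 0.0156). In M202(Sub1) the change of PAL06, 0.26, was not called. HCT1, a hydroxycinnamoyltransferase, which uses 4CL products, rose by 1.33 ± 0.06 in M202(Sub1) and 1.85 ± 0.06 in M202. HCT2, of the same type, fell by 0.64 ± 0.07 in M202(Sub1) and was not called in M202, at 0.07.

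The flavonoid branch was measured through 2 of the 4 listed genes, and both fell in both genotypes, beside 21.2% of all probe sets called lower in M202(Sub1) and 20.0% in M202. In M202, 1 of the 2 was called when the arrays compared were fitted alone, without replicate 2 of submerged plants or without replicate 2 of non-submerged plants. CHI, the chalcone isomerase, had 10.79 and 10.92 in submerged M202(Sub1), against 12.93 and 12.86 in non-submerged M202(Sub1), and 11.55 and 11.57 in submerged M202, against 12.95 and 12.93 in non-submerged M202. It fell by 2.04 ± 0.05 in M202(Sub1) and by 1.38 ± 0.05 in M202, a difference of -0.66 ± 0.07 (limma adjusted p = 0.00896). CHS, the chalcone synthase that uses 4-coumaroyl-CoA directly, fell by 0.76 ± 0.08 in M202(Sub1) and by 0.38 ± 0.08 in M202, and its difference of -0.38 was not called.

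The secondary wall cellulose synthases CESA4, CESA7 and CESA9, which mark xylem and fibre cells, all fell in both genotypes, beside 21.2% of all probe sets called lower in M202(Sub1) and 20.0% in M202, and limma called none for the response difference. In M202, 1 of the 3 was called without replicate 2 of submerged plants or without either array of non-submerged plants. Their summed level was 11.80 to 11.88 in submerged M202(Sub1), against 12.47 to 12.74 in non-submerged M202(Sub1), and 11.99 to 12.15 in submerged M202, against 12.68 to 12.78 in non-submerged M202 (log2). Their part in the changes of the 4CL genes was not tested.

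**Figure D4:**
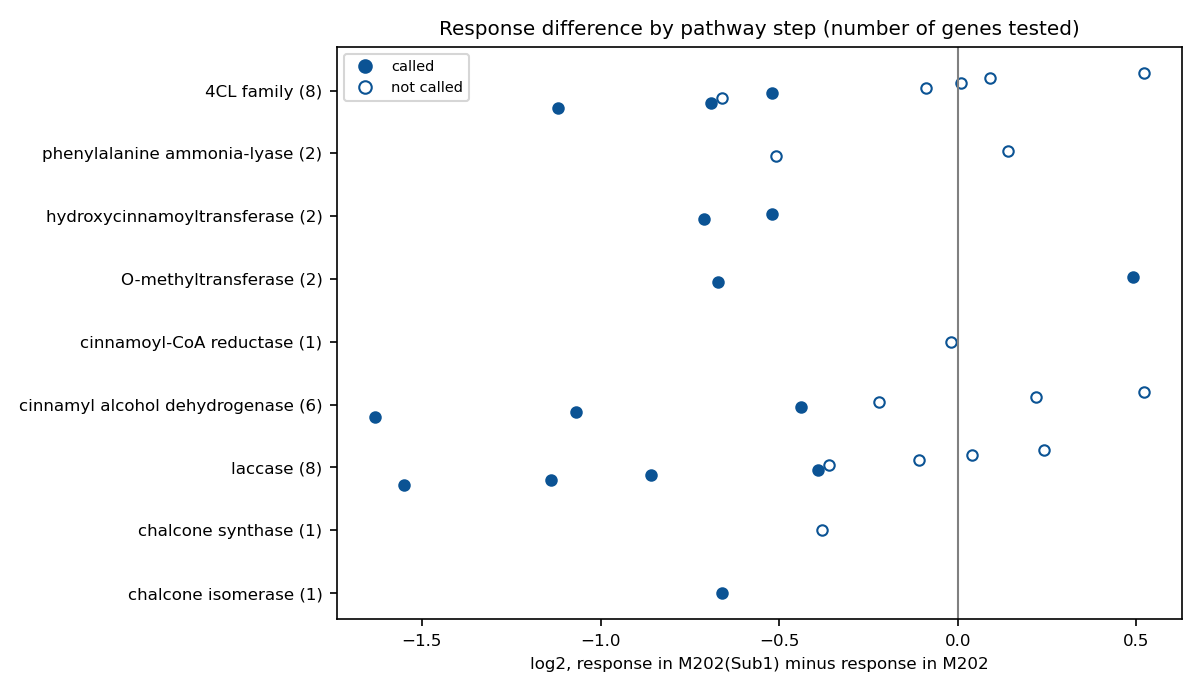
Submergence response in M202(Sub1) minus that in M202 (log2, horizontal axis) of the 8 family genes and of the tested lignin and flavonoid genes, by pathway step, with filled points for limma calls. All called genes but 1 O-methyltransferase, ROMT-17 at 0.49, lie below 0.

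The members did not share a place in the genome or a common course. 4CL2 and 4CL3 lie on chromosome 2, 4CLL1 and 4CLL4 on chromosome 3, 4CL4 on chromosome 6, 4CLL7 on chromosome 7, and 4CL1 and 4CL5 on chromosome 8 (assembly ASM3414082v1, used for order only). The nearest pair, 4CLL1 and 4CLL4, has 143 genes between them. Over the 8 arrays, which form 4 groups, the courses of 4CL2 and 4CLL7 were alike with r = 0.986 and those of 4CL5 and 4CLL1 with r = 0.988, while 4CL2 and 4CL5 ran against each other with r = -0.936. 4CL3 followed neither, with r = 0.146 to 4CL2 and 0.06 to 4CL5, and came closest to 4CLL4 with r = 0.628. These are descriptions, in which submergence alone makes many genes alike.

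Among 2643 other tested probe sets with a gene name, those most like each member over the 8 arrays were as follows. 4CL2 was most like BURP2 (r = 0.9988), a BURP-domain gene, and cdsp32 (r = 0.9981), a thioredoxin-like protein of chloroplasts. BURP2 had 5.22 and 4.65 in submerged M202(Sub1), against 10.74 and 10.72 in non-submerged M202(Sub1), and 6.55 and 6.56 in submerged M202, against 10.74 and 10.72 in non-submerged M202. 4CL3 was most like GT43H (r = 0.953), of a glycosyltransferase family that acts in xylan synthesis, and BASS2 (r = 0.9456). GT43H had 6.99 and 6.94 in submerged M202(Sub1), against 7.24 and 7.06 in non-submerged M202(Sub1), and 7.30 and 7.26 in submerged M202, against 7.03 and 7.03 in non-submerged M202. Picked for its likeness to 4CL3 on these same arrays, it also has its highest level in submerged M202 and its lowest in submerged M202(Sub1).

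4CL4 was most like AT4 (r = 0.9535), also listed as PMT, a transferase that attaches p-coumarate to lignin alcohols, and MRS2-G (r = 0.9527), a magnesium transporter. AT4 had 7.91 and 7.80 in submerged M202(Sub1), against 7.81 and 7.06 in non-submerged M202(Sub1), and 8.21 and 8.15 in submerged M202, against 7.31 and 7.09 in non-submerged M202. 4CL1 was most like RIC1 (r = 0.9572) and GT43E (r = 0.9461). 4CL5 was most like OsPOLLUX (r = 0.9956) and the ammonium transporter AMT2-1 (r = 0.9944). 4CLL1 was most like the calmodulin-like gene CML4 (r = 0.9985) and DRR2 (r = 0.9984), also listed as LTI6B. 4CLL4 was most like the thioredoxin gene OsTrx01 (r = 0.9731) and the small heat shock gene HSP17.9B (r = 0.9707). OsTrx01 had 7.19 and 7.15 in submerged M202(Sub1), against 7.07 and 7.13 in non-submerged M202(Sub1), and 7.77 and 7.73 in submerged M202, against 7.14 and 7.14 in non-submerged M202. 4CLL7 was most like the betaine aldehyde dehydrogenase BADH2 (r = 0.9957) and the ascorbate peroxidase APX2 (r = 0.9948).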

How the data were processed

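Biotin-labelled RNA of aerial tissue was hybridised to Affymetrix rice arrays, per the labels' protocols. The authors deposited 1 log2 level for each probe set on each array. GCRMA and MAS5 are named, without role or version, per the submitters' processing notes. There were 57381 probe sets, 123 of them controls, and no missing value. Precision is limited by the number of arrays, 2 in each group, and p-values measure only the spread between them, which may be technical. Values were used as deposited. Probe sets with a mean over the 8 arrays at or above the 40th percentile (2.23) were tested, 34355 in all, many of them near the floor. limma 3.58.1 in R 4.3.3 was fitted to all 8 arrays (lmFit, then eBayes with an intensity trend), with 4 residual degrees of freedom and a prior of 0.99, and Benjamini-Hochberg adjustment over all probe sets tested. The fit was tested on simulated data. Tables were made with Python 3.11.15 and pandas 2.3.3. No permutation test was run.

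Gene names came from the platform annotation through gene identifiers, matched for all 17905 genes in the RefSeq gene table of ASM3414082v1. The members, lists and tests were chosen with earlier results of these data known. The genes named were all members in 5 contrasts and, per list and contrast, the 2 called genes that changed most. Each list gene was read from 1 probe set, that of highest mean. Per member, the 2 named genes with the highest Pearson r were given. PAL, HCT1, genes of their types, ROMT-17, markers and genes near the floor were named besides. Alternatives were another filter and none, no trend, 3 other scalings, a fit on the arrays compared, a replicate block and leaving out each array. Same-numbered arrays of different groups deviated together with r = 0.0078 to 0.1783, and 1 of 6 such pairs passed 0.1. Low values of r cannot exclude a batch shared by same-numbered arrays. In every group, replicate 1 had the larger difference between 3' and 5' probe sets, for actin and for GAPDH. Whether the numbers pair the samples was not settled.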

Additional observations from a re-analysis of the deposited data

Results flagged for a closer look

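For 3 genes the submergence response differed between the genotypes by the test of the difference itself, the response in M202(Sub1) minus that in M202. The value was -1.12 for 4CL2, which fell in both genotypes and by more in M202(Sub1). It was -0.69 for 4CL3, called lower after submergence in M202(Sub1) and higher in M202. It was -0.52 for 4CLL4, called higher in M202 and not called in M202(Sub1). Only 4CL3 kept its call under every alternative. With no filter on low values, 4CL2 and 4CLL4 lost theirs (limma adjusted p = 0.0606 and 0.0828). The replicate block also took the call from 4CLL4 (limma adjusted p = 0.0674). Leaving out single arrays gave -1.31 to -0.94 for 4CL2 and -0.61 to -0.43 for 4CLL4.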

How the results depend on the processing

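Of 40 results, 8 genes in 5 contrasts, 20 kept direction and call under every alternative, among them all 4CL3 results and the submergence changes of 4CL2, 4CL5, 4CLL1 and 4CLL7 in both genotypes. Centring on the poly(A) spike-ins moved the splits most. For submergence in M202(Sub1) it gave 6362 higher and 20778 lower calls (27140 in all), against 9517 and 7291 as deposited, and for the family 2 higher and 5 lower, against 2 and 3. For submergence in M202 it gave 6352 higher and 12710 lower, against 7879 and 6859, and for the family 4 and 3, against 5 and 2. For genotype in submerged plants it gave 15784 calls, 1603 higher and 14181 lower, against 3638 and 3485, and 7 members, against 3, and for the lignin list 17 lower, against 10. For the response difference it gave 1051 higher and 4288 lower, against 2186 and 2037, with the same 3 members. Fitted on the arrays compared alone, genotype gave 161 calls in non-submerged and 3000 in submerged plants, against 657 and 7123, and 1 member in submerged plants. Without the filter the response difference gave 2650 calls, against 4223, and 1 member, 4CL3. Leaving out an array gave 395 to 1769 calls for genotype in non-submerged plants, and 1 to 3 members for the response difference, 1 (4CL3) without each of 6 arrays: both of either genotype's non-submerged plants and both of submerged M202. Median centring gave 375 higher and 401 lower calls for genotype in non-submerged plants, against 235 and 422.

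Signs reversed mostly for values near 0. Centred on the spike-ins, submergence in M202(Sub1) gave -0.22 for 4CL4 and -0.17 for 4CLL4, genotype in non-submerged plants -0.02 for 4CL4, and the response difference -0.12 for 4CL1 and -0.20 for 4CLL1. With median centring genotype gave 0.01 for 4CLL7 in non-submerged and 0.02 for 4CL5 in submerged plants, and the response difference of 4CLL1 was -0.01, or -0.03 with quantile normalization. Leaving out an array gave, for genotype in non-submerged plants, -0.06 to 0.11 for 4CL4, -1.14 to 0.06 for 4CL5 and -0.16 to 0.05 for 4CLL7; in submerged plants, -0.29 to 0.08 for 4CL1 and -0.28 to 0.24 for 4CL5; and for the response difference, -0.10 to 0.27 for 4CL1, -0.08 to 1.12 for 4CL5 and -0.05 to 0.06 for 4CLL1. With the replicate block, 4CLL4 lost its call for the response difference (limma adjusted p = 0.0674), 4CL4 gained one for submergence in M202(Sub1) (limma adjusted p = 0.0351), and family calls numbered 6 for submergence in M202(Sub1), 7 for that in M202, 3 for genotype under submergence, 0 for genotype without it, and 2 for the response difference. Among all 34355 probe sets tested, the block gave 16707, 14587, 6678, 462 and 3636 calls, in that order. The causes were not tested.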
